A study of Mus musculus with 2 samples.

Results

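The expression of 10 genes of T lymphocytes and natural killer (NK) cells was examined in adherent cells of fibrotic mouse liver. They were Cd3d, Cd3e, Cd3g, Cd4, Cd8a, Il7r, Nkg7, Gzma, Gzmb and Ncr1, and all 10 were found among the 38320 gene entries of the files. Liver fibrosis was produced in adult male C57/Bl6 mice by 5 weeks of carbon tetrachloride (CCl4), a hepatocyte toxin. The αSMACreER;Foxf1-/- animals carried floxed Foxf1 alleles and a tamoxifen-inducible Cre recombinase driven by the promoter of α-smooth muscle actin, which is active in myofibroblasts and in smooth muscle. The Foxf1fl/fl controls carried the same floxed alleles without Cre, and tamoxifen was used to activate the recombinase. Liver cell suspensions were plated for 2 hours and the cells that adhered were pooled, so that each genotype was measured as 1 RNA-seq library without a replicate. No p-value can be given for any difference, and a fold change below compares 2 libraries.

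T cells recognise antigen through a receptor of variable α and β chains that cannot signal alone. The invariant CD3δ, CD3ε and CD3γ chains carry the signalling motifs and bring the receptor to the surface, while the coreceptors CD4 and CD8 bind MHC class II and class I and deliver the kinase Lck. NK cells lack this receptor and are triggered by germline-encoded receptors such as NKp46, and both NK cells and cytotoxic T cells kill with granules that hold perforin and granzymes. The liver is rich in NK cells and other innate lymphocytes.

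The plating selected for adherent cells, and the libraries were dominated by other cell types. Expression was given as FPKM, the number of fragments scaled to transcript length and sequencing depth. The macrophage markers had medians of 646 FPKM in control and 679 FPKM in αSMACreER;Foxf1-/- cells. The hepatic stellate cell and myofibroblast markers, the cells that the Cre targets, had medians of 3.61 and 3.80 FPKM. Within that list Lrat, a gene of quiescent stellate cells, was lowest at 0.0778 and 0.111 FPKM, and the collagen gene Col3a1 was highest at 115 and 164 FPKM. T cell markers were nonetheless present. The 6 genes Cd3d, Cd3e, Cd3g, Trac, Lck and Cd2 summed to 140.5 FPKM in control and 153.7 in αSMACreER;Foxf1-/- cells, and none of them was at 0. The 6 NK cell markers Ncr1, Klrb1c, Klrk1, Klrd1, Eomes and Gzma summed to 60.5 and 65.8 FPKM, of which Gzma, a gene that cytotoxic T cells also express, made up most. The markers that define NK cells most closely were the lowest, with Klrb1c, which encodes NK1.1, at 0.533 and 0.868 FPKM.

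The immediate upstream sequences of the CD3 genes, Gzma, Gzmb and Ncr1 are shown, because the members differ there in a motif that the choice of genes did not use. Not printed are the sequences of Nkg7, which held both motifs marked below, Cd8a and Il7r. The windows are the 150 bases before the start of the RefSeq transcript in GRCm38.p6, 5′ to 3′ on the strand of the gene. Capitals mark matches on either strand to TGTGGT, the core of the RUNX binding motif, and to AGGAAG, a core of the ETS motif.
Cd3d, chr9:44981636-44981785, plus strand: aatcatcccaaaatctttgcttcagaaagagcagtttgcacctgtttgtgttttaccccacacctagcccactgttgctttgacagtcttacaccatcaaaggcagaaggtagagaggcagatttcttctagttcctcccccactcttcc
Cd3e, chr9:45009612-45009761, minus strand: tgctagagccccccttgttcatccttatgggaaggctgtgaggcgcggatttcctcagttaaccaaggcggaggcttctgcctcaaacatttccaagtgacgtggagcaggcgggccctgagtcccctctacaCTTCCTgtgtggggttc
Cd3g, chr9:44980432-44980581, minus strand: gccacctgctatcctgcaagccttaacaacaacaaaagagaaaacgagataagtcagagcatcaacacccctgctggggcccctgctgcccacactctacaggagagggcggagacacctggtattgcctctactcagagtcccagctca
Gzma, chr13:113100982-113101131, minus strand: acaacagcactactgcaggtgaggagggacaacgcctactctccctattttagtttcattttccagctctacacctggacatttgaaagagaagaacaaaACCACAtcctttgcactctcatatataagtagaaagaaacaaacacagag
Gzmb, chr14:56262335-56262484, minus strand: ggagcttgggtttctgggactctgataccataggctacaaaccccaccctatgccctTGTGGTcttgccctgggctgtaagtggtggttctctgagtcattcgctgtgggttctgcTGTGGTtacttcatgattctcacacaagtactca
Ncr1, chr7:4337574-4337723, plus strand: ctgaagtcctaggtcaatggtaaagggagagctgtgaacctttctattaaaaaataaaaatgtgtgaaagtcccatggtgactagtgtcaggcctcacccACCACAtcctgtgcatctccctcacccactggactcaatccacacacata

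RUNX factors direct the CD4 and CD8 lineage choice and cytotoxic gene expression, and ETS factors act at many lymphoid promoters. Windows were held for 9 of the 10 genes, with 2 start sites for Ncr1 whose windows overlap almost wholly and hold the same match. The RUNX letters stood in 5 of the 10 windows, against 8.40% of all 32851 RefSeq promoter windows of that length. Those 5 windows belonged to 4 of the 9 genes, Gzma, Gzmb, Nkg7 and Ncr1, and Gzmb had 2 matches. The windows of Cd3d, Cd3e, Cd3g, Cd8a and Il7r had 0 matches. The ETS letters stood in 3 of the 10 windows, those of Cd3e, Il7r and Nkg7, against 19.7% of all windows. The exact letters TATAAA, a form of the TATA box, stood in no window, against 7.57% of all windows. Other forms of that box were not searched. The AP-1 motif TGANTCA stood in 1 window, that of Gzmb, against 4.24% of all windows. The start sites of Cd3d and Cd3g lie 1355 bases apart on opposite strands of chromosome 9. These matches are letters in a window and were not tested for binding.

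**Figure D1:**
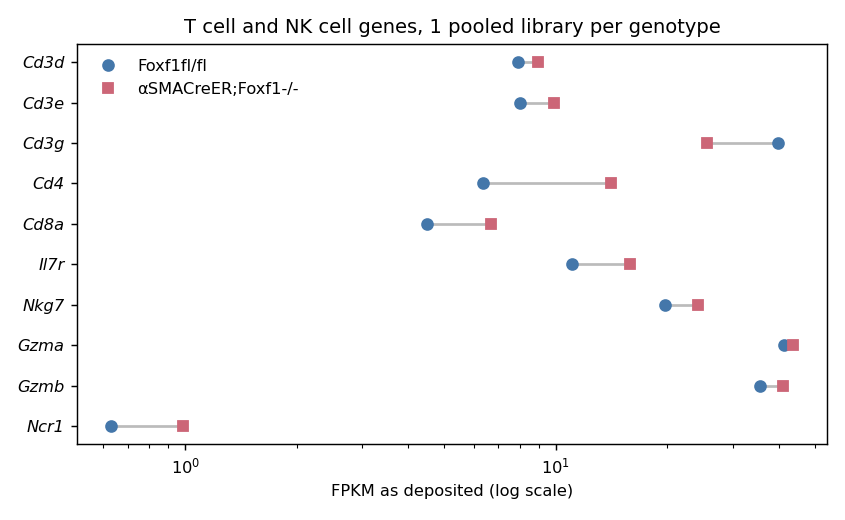
FPKM as deposited (log scale) of the 10 T cell and NK cell genes, with 1 circle for the Foxf1fl/fl library and 1 square for the αSMACreER;Foxf1-/- library. Cd4 moved from 6.34 to 14.1 FPKM, Cd3g was the only one of the 10 with a lower value in αSMACreER;Foxf1-/- cells, and Ncr1 lay below 1 FPKM in both libraries.

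The levels spanned a wide range in both libraries. FPKM is a value per transcript length, so levels can be compared between genes, with intervals that cover counting error only and rest on read numbers estimated from the files. In the Foxf1fl/fl library Gzma was highest at 41.4 FPKM (approximate 95% interval 37.0 to 46.1), followed by Cd3g at 39.7 (35.5 to 44.3) and Gzmb at 35.7 (32.4 to 39.1). These 3 levels did not differ beyond counting error from one neighbour to the next. Nkg7 at 19.7 FPKM and Il7r at 11.1 FPKM were each below the gene before them beyond that error. Cd3e at 8.02, Cd3d at 7.90 and Cd4 at 6.34 FPKM formed another run of neighbours that could not be told apart, and Cd8a was lower at 4.48 FPKM. Ncr1 was lowest at 0.631 FPKM (0.272 to 1.24), from about 8 reads. Gzma stood above 87.2% of the genes with a value above 0 in this library, and Ncr1 above 24.4%.

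Cd3g and Cd4 changed place in the order of the αSMACreER;Foxf1-/- library. Gzma at 43.8 FPKM (39.6 to 48.3) and Gzmb at 41.0 (37.7 to 44.5) were highest and could not be told apart. Cd3g, at 25.5 FPKM, was now below Gzmb beyond counting error and indistinguishable from Nkg7 at 24.3 FPKM. Cd4 moved from the eighth to the sixth place, to 14.1 FPKM, where it did not differ beyond counting error from Il7r at 15.8 FPKM and exceeded Cd3e at 9.88 FPKM. Cd3d at 8.96, Cd8a at 6.68 and Ncr1 at 0.987 FPKM followed.

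The genotypes were then compared as the log2 ratio of the αSMACreER;Foxf1-/- to the Foxf1fl/fl library, on FPKM plus 0.1 after the libraries were scaled to the same median. A change of at least 1.5-fold was called. Across the 12839 genes with a mean of at least 1 FPKM, 12.9% were called higher and 13.2% were called lower in αSMACreER;Foxf1-/- cells, and the median log2 difference was 0.0057. Of the 10 T cell and NK cell genes, 9 passed the same filter and Ncr1 did not. Among all 10, 1 was called higher (Cd4) and 1 lower (Cd3g), which is close to those shares of all genes. By sign, 9 were above 0 and 1 was below, with a median of 0.27. In such mixed-cell libraries, fewer cells of a type and less RNA per cell cannot be told apart.

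The 3 CD3 chains, which are assembled into one receptor, did not move together. Cd3d (ENSMUSG00000032094, chr9:44981786-44987339) was at 7.90 FPKM in control and 8.96 in αSMACreER;Foxf1-/- cells, a log2 difference of 0.15 (approximate 95% counting interval -0.20 to 0.51). Cd3e (ENSMUSG00000032093, chr9:44998740-45009627) was at 8.02 and 9.88 FPKM, a log2 difference of 0.27 (-0.097 to 0.64). Both intervals included 0. Cd3g (ENSMUSG00000002033, chr9:44969572-44980431), the neighbour of Cd3d, was at 39.7 and 25.5 FPKM, a log2 difference of -0.66 (-0.90 to -0.42), from about 327 and 238 reads. Cd3g thus exceeded Cd3d by a ratio of 5.03 in control and 2.85 in αSMACreER;Foxf1-/- cells. Cd3d and Cd3e stayed near each other, at ratios of 0.985 and 0.907. Neither Cd3d nor Cd3g shared a stretch of 75 bases, the read length, with a transcript of another gene. Cd3e shared 1.55% of such stretches with the antisense gene Gm48719, and the strand of the kit was not given in the sources used here.

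Of the coreceptors, Cd4 gave the largest difference of the 10 genes and Cd8a a smaller one. Cd4 (ENSMUSG00000023274, chr6:124864692-124888221) was at 6.34 FPKM in control and 14.1 in αSMACreER;Foxf1-/- cells, a log2 difference of 1.11 (0.87 to 1.36), from about 184 and 464 reads. CD4 is not exclusive to T cells and is also found on some dendritic cells and macrophages of rodents. Cd8a (ENSMUSG00000053977, chr6:71373427-71379173), which encodes the α chain present in every CD8 dimer, was at 4.48 and 6.68 FPKM, a log2 difference of 0.54 (0.23 to 0.85) that did not reach 1.5-fold. Cd8b1, the β chain of the conventional CD8 T cell coreceptor, was at 9.43 and 10.1 FPKM with a log2 difference of 0.07. The ratio of Cd4 to Cd8a was 1.42 in control and 2.11 in αSMACreER;Foxf1-/- cells, and the ratio of Cd4 to Cd3e was 0.790 and 1.43. The plasmacytoid and classical dendritic cell markers, of which 2 of 10 were called higher and 0 lower, had a median log2 difference of 0.22. They ranged from -0.44 to 0.82, with 7 above 0 and 3 below. Siglech was at 22.4 and 24.9 FPKM (0.13) and Ccr9 at 16.5 and 23.8 FPKM (0.50). The part of these cells in the Cd4 value was not tested.

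Il7r (ENSMUSG00000003882, chr15:9505788-9530176) encodes the receptor chain through which interleukin 7 keeps naive and memory T cells and innate lymphoid cells alive. It was at 11.1 FPKM in control and 15.8 in αSMACreER;Foxf1-/- cells, a log2 difference of 0.49 (0.30 to 0.67) that lay under 1.5-fold. The interval did not include 0, as was also the case for Cd3g, Cd8a and Cd4, but it holds no spread between animals or cultures.

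The granule genes Gzma, Gzmb and Nkg7 differed by less than 1.5-fold between genotypes. Gzma (ENSMUSG00000023132, chr13:113093825-113100981), a tryptase of cytotoxic granules, was at 41.4 FPKM in control and 43.8 in αSMACreER;Foxf1-/- cells, a log2 difference of 0.05 (-0.16 to 0.27). Gzmb (ENSMUSG00000015437, chr14:56258838-56262260), which cleaves caspases in the target cell, was at 35.7 and 41.0 FPKM, a log2 difference of 0.18 (-0.0028 to 0.36). Both serine proteases thus kept intervals that included 0. Nkg7 (ENSMUSG00000004612, chr7:43437073-43438249), a membrane protein of cytotoxic granules, was at 19.7 and 24.3 FPKM, a log2 difference of 0.27 (-0.049 to 0.59). Ncr1 (ENSMUSG00000062524, chr7:4337724-4345164), which encodes the NK cell receptor NKp46, was at 0.631 and 0.987 FPKM, with a log2 difference of 0.55 (-0.69 to 1.79). At about 8 and 14 reads, a difference in Ncr1 was not detectable at this depth. The ratio of Gzma to Ncr1 was 65.6 in control and 44.3 in αSMACreER;Foxf1-/- cells, and the ratio of Gzmb to Gzma was 0.861 and 0.937.

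**Figure D2:**
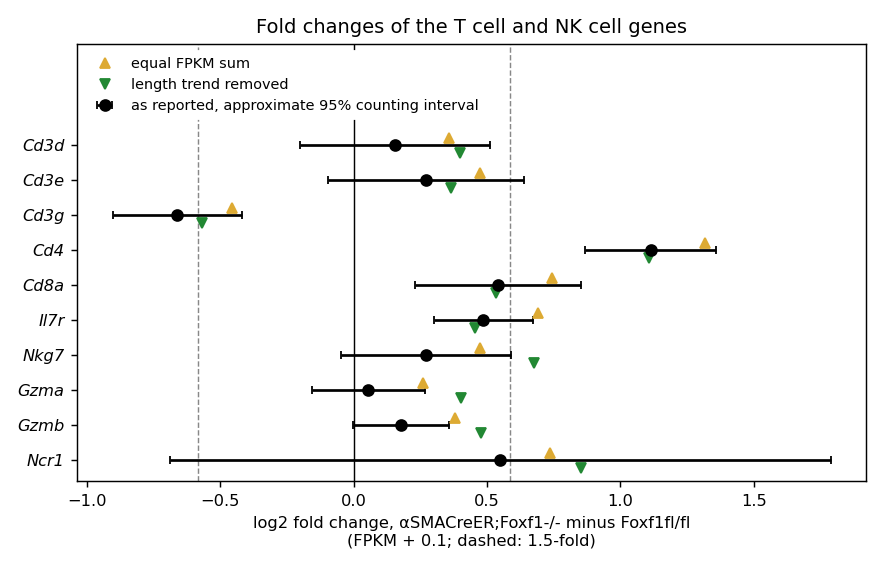
Log2 fold change (αSMACreER;Foxf1-/- minus Foxf1fl/fl) of the 10 genes, with black circles for the reported value, bars for the approximate 95% counting interval, yellow triangles after scaling to an equal FPKM sum and green triangles after the trend with transcript length was removed. Dashed lines mark 1.5-fold. Cd4 (1.11) lay above the upper line in every version, and Cd3g (-0.66) lay below the lower line as reported and inside it in both other versions.

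Shorter transcripts had lower ratios in these libraries. The median log2 difference was -0.37 in the shortest and 0.49 in the longest of 20 groups of transcript length. When the median log2 difference of genes of like transcript length was taken off, the median of the 10 genes went from 0.27 to 0.47. Nkg7, Gzma and Gzmb moved to 0.68, 0.40 and 0.48, which lay outside their counting intervals, and Ncr1 moved to 0.85, inside its wide interval, whereas Cd4 stayed at 1.11 and Cd3g came to -0.57. The small differences of the granule genes thus depended on how transcript length was handled, and the sign of none of the 10 changed. Length here was that of the longest transcript, 2539 bases for Cd3g, whose read number was estimated from 1023 bases. The median taken off was -0.093 for Cd3g and -0.35 for Gzma, at 996 bases, so the Cd3g value depends on that choice.

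**Figure D3:**
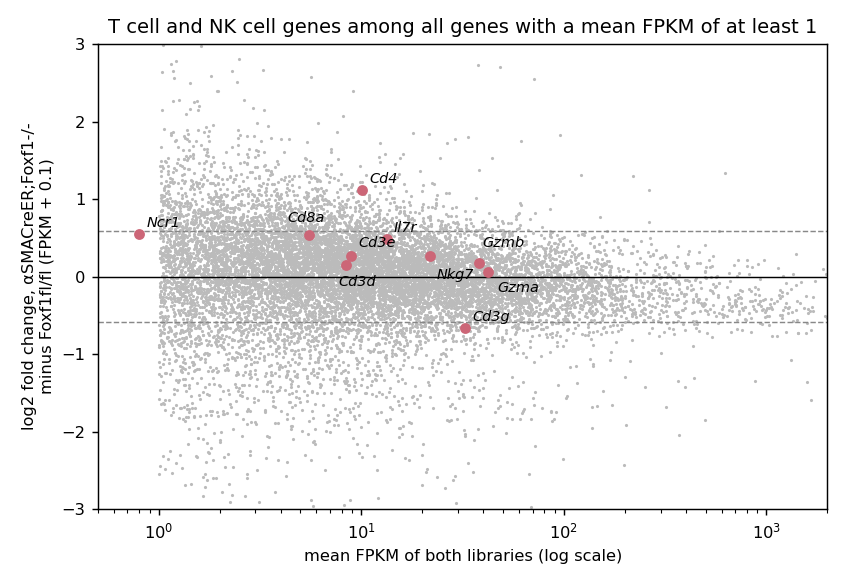
Log2 fold change against the mean FPKM of both libraries (log scale), with grey points for genes with a mean of at least 1 FPKM and red points for the 10 T cell and NK cell genes, of which Ncr1 lay under that mean. Dashed lines mark 1.5-fold, and 256 genes outside the axes are not drawn. Cd4 (1.11) lay above and Cd3g (-0.66) below the lines, and the other 8 lay between them.

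The remaining genes of the T cell receptor complex were likewise uneven. Of 10 measured genes of the complex, Cd3d, Cd3e and Cd3g included, 9 passed the filter, of which 3 were called higher and 1 lower, beside 12.9% and 13.2% of all genes that passed. The gene that did not pass, Tcrg-C4, was listed at 0 in control and at 0.978 FPKM in αSMACreER;Foxf1-/- cells. The median log2 difference over all 10 was 0.27. Trac, the constant region of the α chain, was at 47.0 FPKM in control and 73.9 in αSMACreER;Foxf1-/- cells, a log2 difference of 0.63. The 2 constant regions of the β chain went apart, with Trbc2 at 20.3 and 32.6 FPKM (log2 difference 0.66) and Trbc1 at 16.7 and 14.9 FPKM (-0.20). Trbc1 and Trbc2 shared 34.6% and 37.7% of their 75-base stretches, so the division of reads between them is uncertain. Tcrg-C2, a γ chain constant region, was at 1.61 and 3.71 FPKM (1.13), from about 12 and 30 reads. The ζ chain gene Cd247 was at 5.73 and 7.06 FPKM (0.27).

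The variable segments of the T cell receptor were then read, a choice made after their values were seen. Of 98 α variable segments listed, 18 had a value above 0 in control and 27 in αSMACreER;Foxf1-/- cells, and they summed to 14.2 and 25.6 FPKM. Of 21 β variable segments, 13 and 17 were above 0, and 12 were above 0 in both libraries, with sums of 42.0 and 69.4 FPKM. Over all 38320 gene entries, 18112 were above 0 in control and 18854 in αSMACreER;Foxf1-/- cells. The αSMACreER;Foxf1-/- library was also estimated to be deeper, so these counts do not compare the variety of receptors. Most of the gap between the β sums came from one segment. Trbv13-1 (ENSMUSG00000076467, chr6:41116007-41116468) was at 2.94 FPKM in control and 26.1 in αSMACreER;Foxf1-/- cells, from about 4 and 40 reads, and made up 6.99% and 37.6% of the β sum. Without it the β sums were 39.1 and 43.3 FPKM. Trbv13-1 shared no 75-base stretch with another gene, and its relative Trbv13-2 was at 7.19 and 7.18 FPKM.

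**Figure D4:**
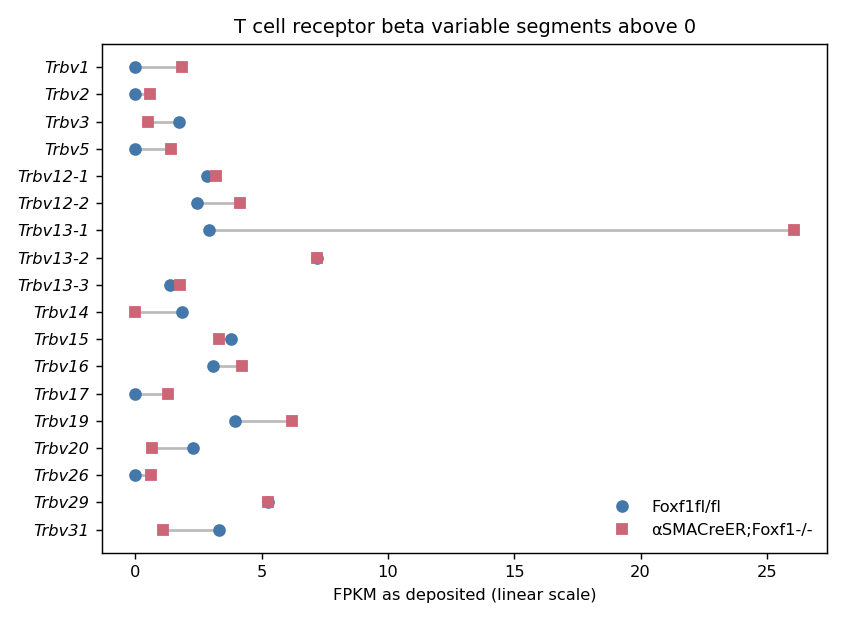
FPKM as deposited (linear scale) of the 18 T cell receptor β variable segments above 0 in at least 1 library, with circles for Foxf1fl/fl and squares for αSMACreER;Foxf1-/-. Trbv13-1 went from 2.94 to 26.1 FPKM, and every other segment lay at or under 7.19 FPKM in both libraries.

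The coreceptor and signalling genes downstream of the receptor had more values above 0 than below. Of 17 genes, Cd4 and Cd8a included, 16 passed the filter, of which 4 were called higher and 0 lower, and 1 gene below the filter was also higher. The median log2 difference over all 17 was 0.32. The shares of all genes called higher and lower were 12.9% and 13.2% for this and the following lists. Lck, the kinase that starts the signal, was at 21.8 FPKM in control and 22 in αSMACreER;Foxf1-/- cells (-0.01), and Zap70, the kinase recruited to the CD3 and ζ chains, was at 8.77 and 8.51 FPKM (-0.07). The adaptor Lat was at 12.4 and 10.4 FPKM (-0.28). The highest values of the list belonged to Lcp2, at 399 and 395 FPKM, and Fyn, at 101 and 117 FPKM, genes that myeloid cells also express. Of 18 costimulatory and surface genes, 2 were called higher and 0 lower, with a median of 0.04. Those 2 were Cd27, a costimulatory receptor of the TNF receptor family, at 5.30 and 8.70 FPKM (0.68), and Havcr2, which encodes the inhibitory receptor TIM-3 and is also expressed by macrophages, at 7.30 and 11.6 FPKM (0.64). The early activation marker Cd69 was at 53.8 and 37.4 FPKM (-0.55), and the inhibitory receptor genes Pdcd1 and Tigit differed by 0.24 and 0.19.

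The cytotoxic effector list held genes that differed in both directions, from -1.26 to 1.57 on the log2 scale. Of 16 genes, the 3 granule genes above included, 1 was called higher and 2 lower. These counts were not above the shares of 12.9% and 13.2% over all genes. The median log2 difference was -0.02, and 0.18 with an equal FPKM sum. Prf1, which encodes the pore-forming perforin, was at 1.5 FPKM in control and 4.74 in αSMACreER;Foxf1-/- cells (1.57), from about 34 and 122 reads. The ratio of Prf1 to Gzmb was 0.0421 in control and 0.116 in αSMACreER;Foxf1-/- cells. Gzmc, a granzyme of strongly activated lymphocytes, was at 16.8 and 7.07 FPKM (-1.26), and Gzmk was at 4.49 and 2.61 FPKM (-0.79). Granzymes a, b, c and k therefore did not share a direction. Ifng was at 18.9 and 15.4 FPKM (-0.32) and Xcl1 at 74.0 and 77.0 FPKM (0.03). Srgn and Ccl5, at 1572 and 1384 FPKM in control, are also made by macrophages and other leukocytes.

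The NK cell receptor list had a median above that of all genes, but much of it was too low to read. Of 25 genes, Ncr1 included, 12 reached a mean of 1 FPKM, of which 5 were called higher and 1 lower. Their median log2 difference was 0.33. Over all 25 the counts were 10 higher and 2 lower, with a median of 0.50 that was 0.20 with a pseudocount of 1, and these counts cannot be set against the filtered shares of all genes. Cd226, an activating receptor also found on T cells, was at 1.37 FPKM in control and 3.0 in αSMACreER;Foxf1-/- cells (1.05), and Cd160 was at 1.06 and 2.26 FPKM (1.0). Klrk1, which encodes NKG2D, was at 10.6 and 12.1 FPKM (0.16), and Klrb1b, an inhibitory receptor, was at 9.63 and 6.11 FPKM (-0.67). The adaptor Tyrobp, shared with macrophages, was at 1754 and 1344 FPKM.

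The lymphocyte cytokine receptors, homing genes and transcription factors held calls in one direction. Of 15 cytokine receptor genes, Il7r included, 12 passed the filter, of which 4 were called higher and 0 lower, with 1 more higher below the filter. The median log2 difference was 0.21 over all 15 and 0.35 over the 12. Il12rb2, the inducible chain of the IL-12 receptor, was at 2.45 and 5.35 FPKM (1.07), Il1rl1, the IL-33 receptor, was at 5.56 and 10.7 FPKM (0.91), and the common γ chain Il2rg was at 173 and 168 FPKM (-0.06). Of 11 homing genes, 10 passed, of which 2 were called higher and 0 lower, with a median of 0.16 over all 11. The collagen-binding integrin Itga1 was at 2.68 and 5.91 FPKM (1.09). Of 18 transcription factor genes, 15 passed, of which 6 were called higher and 0 lower, with a median of 0.39 over all 18. Ikzf3 was at 3.57 and 10.1 FPKM (1.44), Bcl11b, required for T cell commitment, was at 0.641 and 1.65 FPKM (1.22), and Tcf7, which encodes the T cell factor TCF-1, was at 7.94 and 16.2 FPKM (1.0). The highest of them, Id2, was at 393 and 338 FPKM (-0.24).

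**Figure D5:**
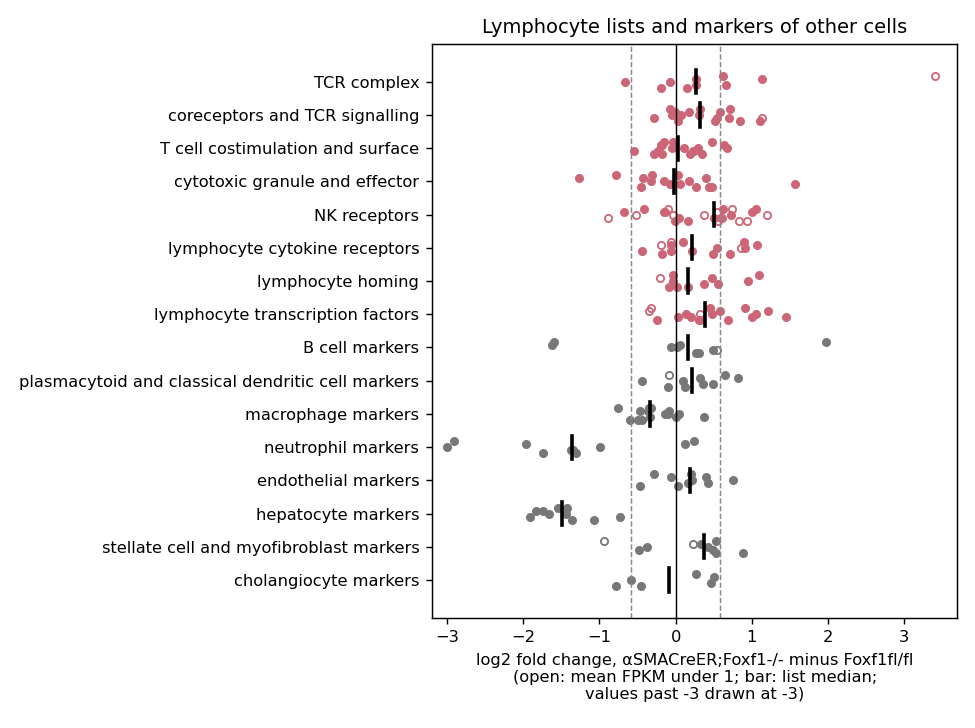
Log2 fold change (αSMACreER;Foxf1-/- minus Foxf1fl/fl) of the genes of 8 lymphocyte lists (red) and of 8 marker lists of other cells (grey), with 1 point per gene, open where the mean was under 1 FPKM, a black bar at the median of the list and dashed lines at 1.5-fold. The medians of the lymphocyte lists lay between -0.02 (cytotoxic effectors, 0.18 with an equal FPKM sum) and 0.50 (NK receptors), and the hepatocyte and neutrophil medians lay at -1.49 and -1.36. The T cell receptor point beyond 3 is Tcrg-C4, listed at 0 in control.

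The medians of the hepatocyte and neutrophil markers lay farther from 0 than that of the 10 genes. All 10 hepatocyte markers were called lower, with a median log2 difference of -1.49 and Alb at 2292 FPKM in control and 912 in αSMACreER;Foxf1-/- cells. Of 10 neutrophil markers 8 were called lower and 0 higher, with a median of -1.36 and S100a8 at 625 and 256 FPKM. Of 15 macrophage markers, 2 were lower and 0 higher, with a median of -0.34. This macrophage median shrank to -0.12 once the length trend was taken off and to -0.13 under equal sums, so its size depended on the processing. The Kupffer cell gene Clec4f was at 1117 and 753 FPKM, and Adgre1 was at 162 and 165 FPKM. The stellate cell and myofibroblast markers had a median of 0.37 (0.16 with the length trend removed), with 7 of 10 above 0. Of the 8 with a mean of at least 1 FPKM, 1 was called higher and 0 lower. Another 1 below that mean was called lower. All 10 ranged from -0.94, the value of that low gene, to 0.89, and Des, at 1.70 and 3.29 FPKM (0.89), rose most. Acta2 fell most among those with a mean of at least 1 FPKM, by less than 1.5-fold. The B cell markers had a median of 0.16 with 1 higher and 2 lower of 10, and ranged from -1.62 to 1.98. The immunoglobulin light chain gene Igkc, a product of B and plasma cells, was at 2498 and 841 FPKM (-1.60), and the B cell factor Pax5 was at 2.40 and 9.92 FPKM (1.98), both named after their values were seen. The endothelial markers had a median of 0.18 (-0.05 with the length trend removed) with 1 higher and 0 lower of 10, and the cholangiocyte markers a median of -0.09 (0.11 with an equal FPKM sum) with 0 higher and 1 lower of 6. Cell makeup was not measured, and its part in the values of the 10 genes was not tested.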

How the data were processed

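RNA was measured in 1 pooled library per genotype of adherent liver cells from CCl4-treated mice (TruSeq kit, single-end reads of 75 bases). The authors aligned the reads with TopHat to mm10 and computed FPKM per gene with Cufflinks, and the FPKM values were used as deposited. The submitters' processing notes also name DESeq, whose output was not used. Of 38320 gene entries, 36574 (95.4%) matched a symbol in GENCODE M21 (GRCm38), which also gave coordinates. The αSMACreER;Foxf1-/- values were divided by 1.02, the median ratio over 12011 genes, and log2(FPKM + 0.1) was subtracted, which understates the change of low genes. The background held 1 entry per symbol, with a status of OK and a mean of 1 FPKM or more. FPKM files hold no counts. The spacing of low values gave estimates of 9980000 and 11330000 reads, with 60.65% and 59.29% of 460 and 506 values within 0.1 of whole reads. The read numbers and intervals are approximate, assume fragments of 200 bases, and cover counting error only.

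The 10 genes and all lists were chosen with earlier results of these data known. The text draws its names from the 10 genes, the 4 highest of each list, and up to 2 with the largest rise and 2 with the largest fall at a mean FPKM of at least 1, with the first markers of other cells. A few further genes (Cd8b1, Cd247, Tcrg-C4, Ifng, Gzmm, Klrb1c, Lrat, Col3a1, Igkc, Pax5, Zap70 and the variable segments) were named after their values were seen. With 1 library per genotype there was no test, and gene lists were described by counts and medians. Alternatives were another pseudocount, filter, scaling, fold limit and a removal of the trend with transcript length in 20 groups. The deleted gene and some other list genes are not reported here. Upstream sequences came from RefSeq (GRCm38.p6). Scripts were tested on simulated data and ran in Python 3.11.15 with scipy 1.17.1, pandas 2.3.3, numpy 2.4.6 and, for plots, matplotlib 3.10.9.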

Additional observations from a re-analysis of the deposited data

How the results depend on the processing

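The 9 positive and 1 negative signs of the 10 genes were found under all 10 alternatives. Another filter, another fold limit and the sum of entries per symbol could not change the value of a member, so agreement under them carries no information. Counts at 1.5-fold were sensitive. The 1 higher member became 2 with a pseudocount of 0.01, 4 when FPKM sums were made equal, 4 under upper-quartile scaling and 3 without the length trend. The 1 lower member, Cd3g, was 0 under equal sums, under upper-quartile scaling, at a limit of 2-fold and without the length trend. The member median of 0.27 was 0.47 under equal sums, 0.40 under upper-quartile scaling and 0.47 without the length trend. These scalings put the median over all genes at 0.21 and 0.14. Of all genes, 1654 were higher and 1694 lower, against 2896 and 1136 under equal sums, 2376 and 1291 under upper-quartile scaling, 3978 and 3304 without a filter, 681 and 952 at a mean of at least 5 FPKM, and 576 and 799 at 2-fold. Of 16 list medians, 16 moved under equal sums, 14 under upper-quartile scaling and 10 without the length trend, for example the costimulatory list from 0.04 to 0.24, 0.17 and 0.26. That of the cytotoxic list changed sign, from -0.02 to 0.18 under equal sums and 0.19 without the length trend. No paired analysis was possible because only 1 library per genotype was made, and no library could be left out. Depth limits Ncr1 and the receptor segments.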
